A study of Mus musculus with 18 samples.

Results

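In all, 10 genes of glucose uptake, glycolysis and pyruvate fate were followed in the interventricular septum of CD-1 mice after heart irradiation (IR). They were chosen by name, as the genes for the glucose transporters Slc2a1 and Slc2a4, the hexokinases Hk1 and Hk2, the phosphofructokinases Pfkm and Pfkp, the pyruvate kinase Pkm, the lactate dehydrogenases Ldha and Ldhb, and the pyruvate dehydrogenase kinase Pdk4. All 10 were found by Ensembl identifier among the 30072 genes of the deposited tables, and all 10 passed the filter on low counts that 15054 genes passed. RNA was sequenced from 18 adult mice of both sexes aged 8 weeks or more: 6 sham controls (ctrl) that received isoflurane and CT imaging but not the therapeutic dose, 6 mice taken 2 weeks after a single dose of 25 Gy under isoflurane with CT imaging (2wk), and 6 mice taken 6 weeks after the same dose (6wk). The mice are littermates of the outbred CD-1 stock. The labels give no time of collection for the controls, so post-IR time and any effect of age or day of collection cannot be told apart. The whole heart was irradiated. The labels do not give the sex of each mouse. Each gene was tested with edgeR on the estimated counts after trimmed mean of M values (TMM) scaling, with Benjamini-Hochberg adjustment over all genes tested, and a gene was called where the adjusted P was under 0.05. Levels are given as TMM-normalized CPM (counts scaled to a common library size), or as TPM (the authors' length-corrected transcript abundance) where genes of different length are compared.

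Glucose enters the heart muscle cell through GLUT4, the insulin-responsive carrier encoded by Slc2a4, and through GLUT1, the basal carrier encoded by Slc2a1, which is also the main glucose carrier of endothelium and many other cells. Hexokinase traps it as glucose 6-phosphate, phosphofructokinase commits it to glycolysis, and pyruvate kinase forms pyruvate. Lactate dehydrogenase interconverts pyruvate and lactate, with the Ldha subunit typical of glycolytic tissue and the Ldhb subunit typical of heart. The pyruvate dehydrogenase kinases, of which PDK4 rises on fasting, shut pyruvate out of the mitochondrial oxidation pathway, and the adult heart draws most of its energy from fatty acids.

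At 6 weeks post-IR the transporter and phosphofructokinase pairs moved apart. Slc2a1 rose 1.38-fold and Pfkp, the platelet-type phosphofructokinase, rose 1.56-fold over controls. On the TMM scale Slc2a4 fell to 0.793 and Pfkm, the muscle-type phosphofructokinase, to 0.772 of the control level, but with scaling to library size alone neither was called. In TPM both log2 fold changes were slightly positive (0.03 for each), below the all-gene median of 0.29 on that scale. With TMM 4 of 10 members were called, 2 higher and 2 lower, while 25.0% of all genes tested were called in the same comparison, 13.5% higher and 11.5% lower. At 2 weeks none of the 10 members was called by edgeR, against 5.02% of all genes (3.09% higher and 1.93% lower). There, 2 members, Hk2 and Ldhb, had an unadjusted P under 0.05, as 20.4% of all genes had. At this time DESeq2 called 1 member and 1216 of all 15054 genes, and limma voom called 0 members and 789 genes. From 2 to 6 weeks only Slc2a1 of the 10 members was called by edgeR, against 5.33% of all genes (3.31% higher and 2.01% lower). DESeq2 and limma voom each called 3 members. Of all 15054 genes, DESeq2 called 717 higher and 447 lower, and limma voom 730 and 466. No member passed a further limit of 1 on the absolute log2 fold change, which 0.903%, 5.95% and 1.14% of all genes passed at 2 weeks, at 6 weeks and between them. At 2 weeks no member's groups were free of overlap with controls, as 3.24% of all genes were. The comparisons with controls share the same 6 control mice.

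**Figure D1:**
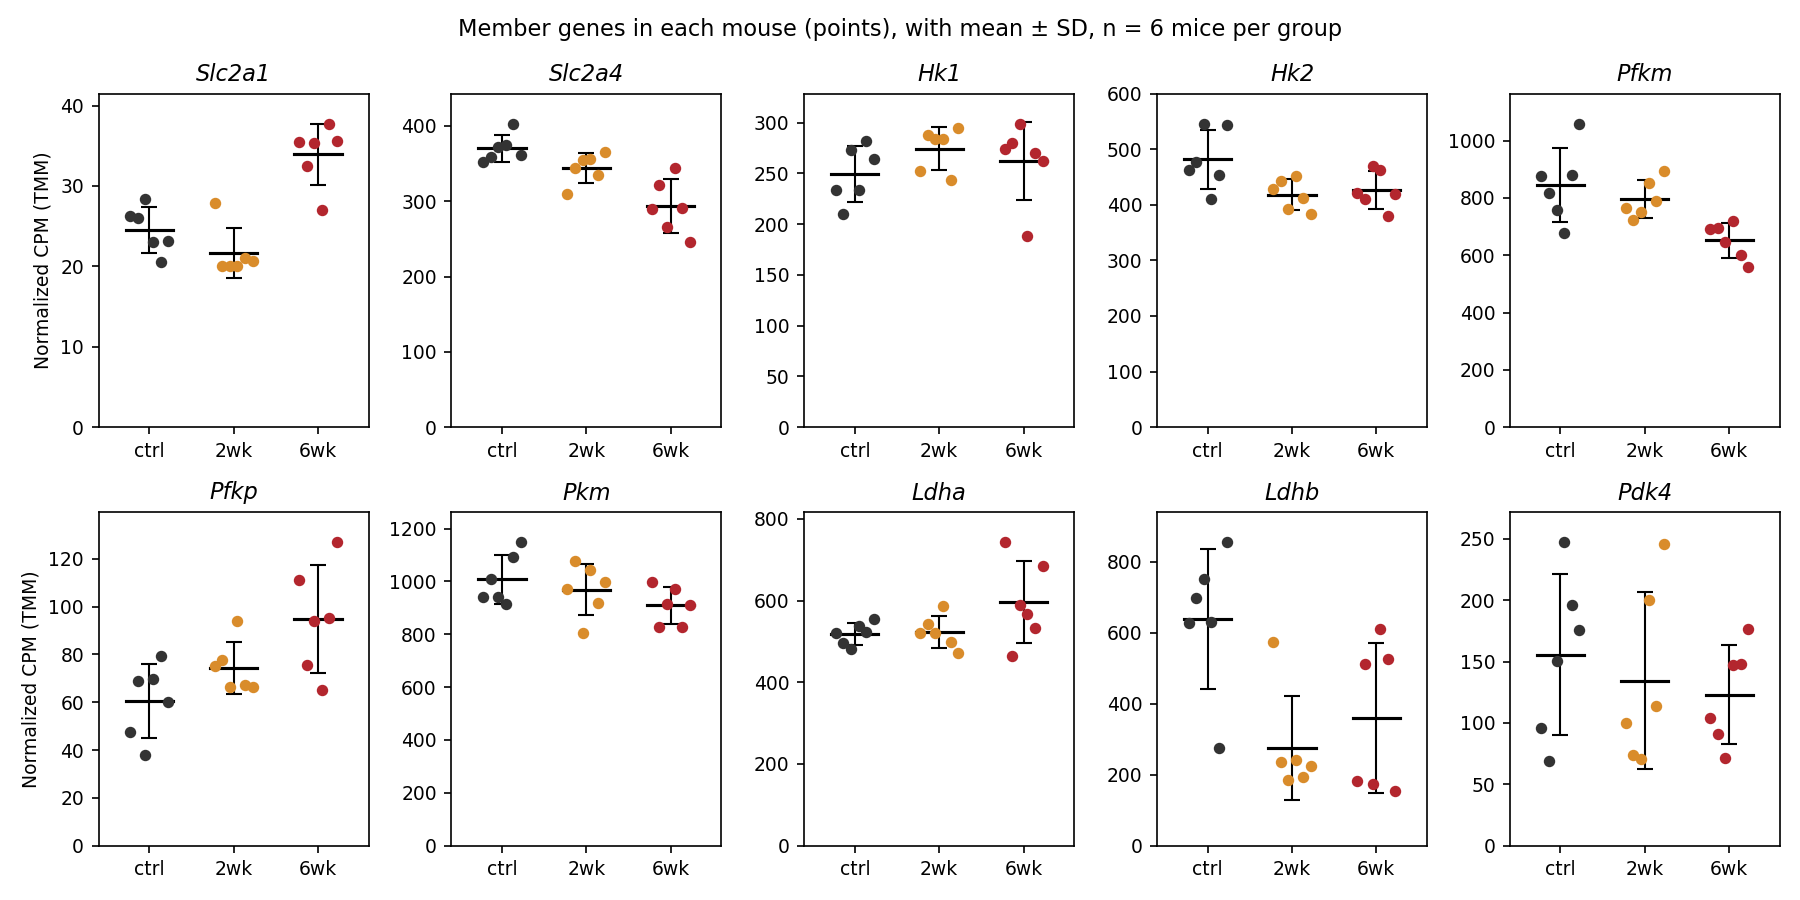
TMM-normalized CPM (vertical axes, from 0) of the 10 member genes in the ctrl, 2wk and 6wk groups, with each mouse as a point and lines for the mean ± SD of 6 mice. The 6wk points of Slc2a1 lie between 27.0 and 37.7 CPM against 20.5 to 28.3 CPM in controls, and those of Slc2a4 lie below every control mouse.

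The scale of comparison bears on the direction of the small changes. The TMM factors ran from 0.844 to 0.991 in controls, from 0.962 to 1.04 at 2 weeks and from 1.04 to 1.13 at 6 weeks, and the share of estimated counts on mitochondrially encoded genes had medians of 23.2%, 20.2% and 17.4%. With library size alone, the middle of the log2 fold changes over every tested gene moved from -0.02 to 0.24 for 6wk against ctrl and from -0.00 to 0.15 for 2wk against ctrl, and 94.4% of the genes called at 6 weeks were then higher, against 54.0% on the TMM scale. In TPM this median was 0.29 at 6 weeks and 0.18 at 2 weeks, and 98.4% of the genes called at 6 weeks were higher. Removing the mitochondrially encoded genes and fitting again with TMM left 4 members called at 6 weeks. Estimated counts per mouse summed to 11522979 to 15501002, and 3 counts, taken as the floor of detection, correspond to 0.194 to 0.260 CPM before TMM scaling. Every member lay above this floor in every mouse.

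Cell markers moved with the groups too. On the TMM scale 8 of 8 ventricular cardiomyocyte markers fell at 6 weeks (median log2 fold change -0.46), 2 of 8 with library size alone, and 7 of 8 macrophage and leukocyte markers rose (median 1.08). The summed level of the cardiomyocyte markers was 28580 to 39990 TPM in controls, 33160 to 39390 TPM at 2 weeks and 32140 to 34890 TPM at 6 weeks, and no cardiomyocyte marker was near 0. The summed leukocyte level was 91.2 to 336 TPM, 227 to 305 TPM and 360.5 to 518 TPM, with 1 of its 8 markers under 1 TPM in every mouse. The summed level of 6 endothelial markers was 180 to 261 TPM, 240.5 to 282 TPM and 292 to 421 TPM, although 2 of them rose and 2 fell on the TMM scale at 6 weeks. Their part in the changes of the members was not tested. In whole tissue, fewer cells of a type and less RNA per cell cannot be told apart. Atrial markers summed to 126 to 2685 TPM over the mice. Of these Nppa was at least 124 TPM in every mouse, while the lowest values of Myl7, Myl4 and Sln were 0.219, 0.910 and 0 TPM. Skeletal muscle markers summed to 0.500 to 1.90 TPM, with 3 of the 5 under 1 TPM throughout. Neither list had a gene called at 6 weeks. Of the fibroblast markers 1 of 6 and of the erythroid markers 1 of 4 tested fell at 6 weeks, and no smooth muscle, adipocyte or Schwann cell marker was called.

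The windows just upstream of 3 genes are shown because Slc2a1 and Pfkp are the members that rose at 6 weeks and Pfkm is the partner isoform of Pfkp. For Pfkm this is the start farthest upstream, and RefSeq places other starts inside the gene. The windows are taken from RefSeq on GRCm38.p6, cut where the GENCODE gene begins, and read 5' to 3' on the strand of the gene. Capitals mark the core letters bound by hypoxia-inducible factors, ACGTG or GCGTG on either strand, where CACGTG holds the first of these on both strands. The Slc2a1 window is chr4:119108495-119108710 (plus strand), the Pfkp window chr13:6648778-6649021 (minus strand) and the Pfkm window chr15:98092339-98092588 (plus strand).
Slc2a1: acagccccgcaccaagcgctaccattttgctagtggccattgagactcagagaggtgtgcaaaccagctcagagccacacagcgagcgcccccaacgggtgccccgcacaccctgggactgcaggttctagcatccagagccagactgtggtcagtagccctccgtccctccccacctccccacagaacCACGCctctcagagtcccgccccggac
Pfkp: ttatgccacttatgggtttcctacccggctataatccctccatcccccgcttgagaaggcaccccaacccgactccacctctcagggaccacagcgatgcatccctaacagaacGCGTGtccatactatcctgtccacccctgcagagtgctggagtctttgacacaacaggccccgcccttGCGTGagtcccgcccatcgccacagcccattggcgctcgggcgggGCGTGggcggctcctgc
Pfkm: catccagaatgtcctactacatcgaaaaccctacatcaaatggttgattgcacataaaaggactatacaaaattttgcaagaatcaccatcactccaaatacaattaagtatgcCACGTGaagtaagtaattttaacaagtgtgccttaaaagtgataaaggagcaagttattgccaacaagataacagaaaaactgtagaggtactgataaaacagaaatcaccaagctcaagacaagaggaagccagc
The core letters occurred 1 time in the 216 bases of Slc2a1, 3 times in the 244 bases of Pfkp and, as an overlapping match on both strands, 2 times in the 250 bases of Pfkm. Of 32851 RefSeq windows cut to the same lengths, 34.1%, 37.9% and 38.6% held at least 1 such core. The GC box GGGCGG, read on both strands, occurred 1 time in the Slc2a1 window, 4 times in that of Pfkp, where one copy shares a base with a core, and 0 times in that of Pfkm. It was held by 27.9%, 31.9% and 32.7% of the windows of these lengths. Windows upstream of members not called at 6 weeks held hypoxia-inducible factor cores too, 2 for Hk2, 1 for Ldhb and 1 for Pdk4. There were 0 for Hk1 and 0 in the 42 bases of Pkm, a length at which 6.86% of RefSeq windows held a core. Windows of 250 bases at RefSeq starts inside the gene held 5 and 1 cores for Ldha, 3 for Hk1 and 1 for Pkm. A match describes letters only. The table held entries for 9 of the 10 members, not for Slc2a4.

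Per unit of length, the controls expressed the members over a wide range. The median was 618 TPM for Ldhb, 423 TPM for Pkm, 373 TPM for Ldha and 285 TPM for Pfkm, and in this order the ranges over 6 mice of neighbouring genes overlapped. Slc2a4 followed at 208 TPM and Hk2 at 115 TPM, each without overlap with the gene above it. Pdk4 (58.5 TPM) and Hk1 (57.3 TPM) overlapped each other and lay below Hk2 in every mouse. Pfkp (23.7 TPM) overlapped Pdk4 but not Hk1, and Slc2a1 was lowest at 8.96 TPM. The control septum thus held more message for the muscle isoforms of transporter, hexokinase and phosphofructokinase than for their widely expressed partners.

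Slc2a1 (ENSMUSG00000028645, chromosome 4, 119108711 to 119137983, plus strand, GRCm38) was measured at 20.5, 24.6 and 28.3 CPM (lowest, median and highest of 6 mice) in controls. It stood at 20.01, 20.4 and 27.9 CPM at 2 weeks and at 27.0, 35.4 and 37.7 CPM at 6 weeks. In the 2wk group 5 mice lay within 20.01 to 21.02 CPM, 1 stood apart at 27.9 CPM, and 5 of the 6wk mice were above every mouse of the other groups. On the log2 scale the difference was 0.47 ± 0.10 (SE) for 6wk against ctrl (adjusted P = 0.00196), 0.65 ± 0.10 for 6wk against 2wk (adjusted P = 0.00221) and -0.18 ± 0.10 for 2wk against ctrl (adjusted P = 0.326). The rise at 6 weeks was called with each of 12 other settings and after leaving out any of the 12 mice compared, where the adjusted P lay between 0.000531 and 0.00573. An antisense gene, Gm12868, shares 2.09% of the 31-base words of Slc2a1, and whether the counting used strand is not given in the sources used here.

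Slc2a4 (ENSMUSG00000018566, chromosome 11, 69942539 to 69948188, minus strand) was measured at 352, 367 and 403 CPM in controls, 310, 349 and 366 CPM at 2 weeks and 246, 291 and 345 CPM at 6 weeks. On the TMM scale each 6wk mouse lay below every control, a separation seen in 9.23% of all genes, while the 2wk group overlapped both. The log2 difference was -0.34 ± 0.07 for 6wk against ctrl (adjusted P = 0.00185), -0.23 ± 0.07 for 6wk against 2wk (adjusted P = 0.0637) and -0.10 ± 0.07 for 2wk against ctrl (adjusted P = 0.429). With library size alone the 6-week value was -0.07 (adjusted P = 0.428), against an all-gene median of 0.24 on that scale, and in TPM it was 0.03 (limma, adjusted P = 0.719). Leaving out replicate 4 of the 6wk group brought the 6wk against 2wk difference to -0.28 (adjusted P = 0.0185).

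The share of each transporter within a mouse does not change with the scaling between mice, and it is given as a description. Slc2a1 made up a median of 4.32% of the summed TPM of both transporters in controls (range 3.18% to 5.14%), 4.01% at 2 weeks (3.70% to 5.79%) and 7.67% at 6 weeks (4.98% to 9.16%). Of the 6wk mice 5 lay above the highest control. Slc2a4 remained the larger part in every mouse. In CPM, which is not divided by length, the medians were 6.39%, 5.43% and 11.2%.

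**Figure D2:**
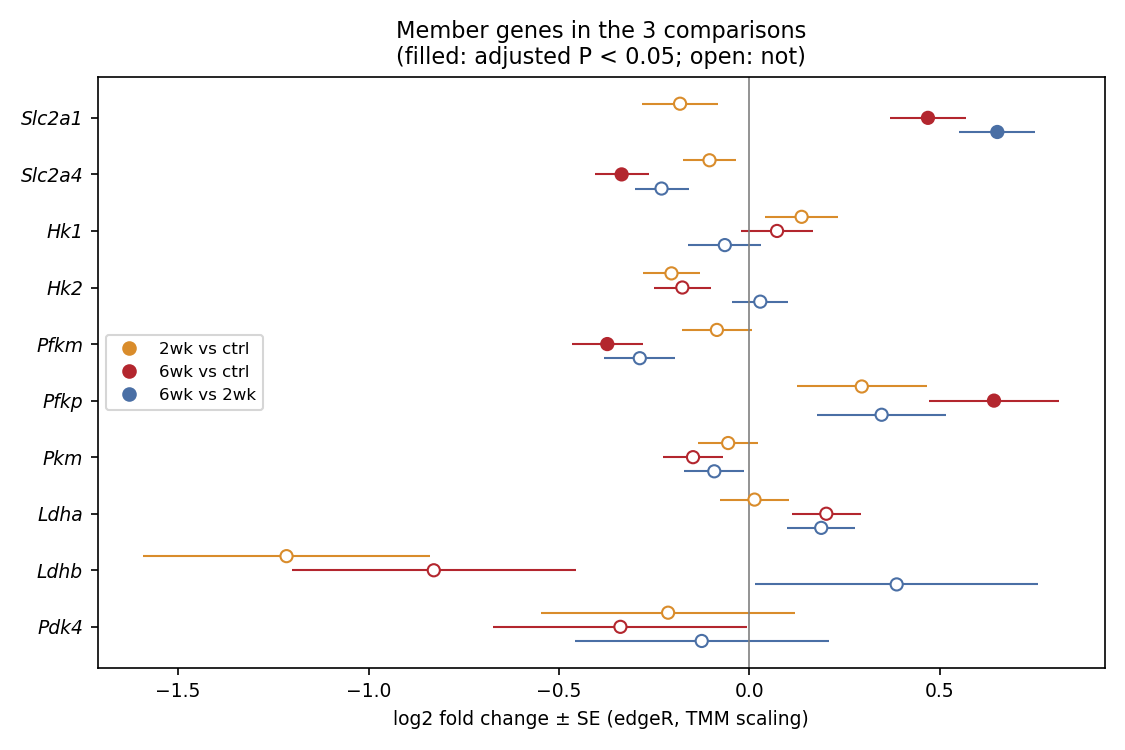
Log2 fold change (horizontal axis) of each member in the 3 comparisons, with bars for ± 1 SE from edgeR on TMM-scaled counts of 6 mice per group. Filled points had an adjusted P under 0.05: Slc2a1 and Pfkp to the right of 0 and Slc2a4 and Pfkm to the left for 6wk against ctrl, and Slc2a1 alone for 6wk against 2wk; Slc2a4 and Pfkm were not called with library size alone and turned to 0.03 in TPM.

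The hexokinases did not pass the test on the TMM scale. Hk1, the widely expressed isoform (ENSMUSG00000037012, chromosome 10), was measured at 209.8, 248.96 and 282 CPM in controls, 244, 284 and 294 CPM at 2 weeks and 189, 272 and 299 CPM at 6 weeks. Its groups overlapped, and the lowest of the 18 values, 189 CPM, belonged to 1 6wk mouse that stood apart from the other 5. Its log2 fold change was 0.14 ± 0.10 at 2 weeks (adjusted P = 0.446) and 0.07 ± 0.10 at 6 weeks (adjusted P = 0.635), but with library size alone the 6-week value was 0.34 (adjusted P = 0.0125) and in TPM 0.45 (limma, adjusted P = 0.00865). The all-gene medians at 6 weeks were 0.24 and 0.29 on these 2 scales. Hk2, the muscle isoform (ENSMUSG00000000628, chromosome 6), was measured at 410, 470 and 546 CPM in controls, 383, 420 and 452 CPM at 2 weeks and 379, 420 and 469 CPM at 6 weeks. Its log2 fold change of -0.20 ± 0.07 at 2 weeks (adjusted P = 0.118) and -0.18 ± 0.07 at 6 weeks (adjusted P = 0.0911) became called without control replicate 4 (adjusted P = 0.0459 and 0.0287), and at 6 weeks it turned to 0.09 with library size alone and to 0.23 in TPM. Hk1 made up a median of 31.6%, 39.9% and 36.7% of the summed hexokinase TPM of the pair in ctrl, 2wk and 6wk, with overlapping ranges.

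Pfkp (ENSMUSG00000021196, chromosome 13, 6579768 to 6648777, minus strand) was measured at 38.0, 64.5 and 79.5 CPM in controls, 66.2, 71.1 and 94.2 CPM at 2 weeks and 64.9, 94.7 and 127 CPM at 6 weeks. The groups overlapped, and 4 of the 6wk mice lay above the highest control. On the log2 scale Pfkp differed by 0.64 ± 0.17 at 6 weeks (adjusted P = 0.00941), 0.29 ± 0.17 at 2 weeks (adjusted P = 0.349) and 0.35 ± 0.17 from 2 to 6 weeks (adjusted P = 0.247). In TPM the 2-week value was 0.79 and was called (limma, adjusted P = 0.0173). The 6-week rise was called with each of 12 other settings and without any 1 of the 12 mice, where the adjusted P lay between 0.00310 and 0.0290. The overlapping gene Pitrm1 shares 5.28% of its 31-base words.

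Pfkm (ENSMUSG00000033065, chromosome 15, 98092589 to 98132451, plus strand) was measured at 676, 845 and 1058 CPM in controls, 724, 777 and 895 CPM at 2 weeks and 560, 669 and 718 CPM at 6 weeks. On the TMM scale every 6wk mouse lay below every 2wk mouse, a separation seen in 3.54% of all genes, and 1 control overlapped the 6wk range. The log2 fold change was -0.37 ± 0.09 for 6wk against ctrl (adjusted P = 0.00614), -0.29 ± 0.09 for 6wk against 2wk (adjusted P = 0.0772, and 0.04465 with DESeq2) and -0.09 ± 0.09 for 2wk against ctrl (adjusted P = 0.649). With library size alone the 6-week value was -0.11 (adjusted P = 0.384) and in TPM 0.03 (limma, adjusted P = 0.804). The antisense gene Gm26513 shares 9.35% of the 31-base words of Pfkm. Pfkp made up a median of 7.46% of the summed TPM of the pair in controls, 12.001% at 2 weeks and 16.4% at 6 weeks. This share leaves out Pfkl. The highest control, at 14.0%, overlapped the irradiated ranges of 9.02% to 13.7% and 10.6% to 20.3%.

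Pkm, the pyruvate kinase of muscle and most other tissues (ENSMUSG00000032294, chromosome 9), was measured at 914, 974 and 1148 CPM in controls, 805, 985 and 1076 CPM at 2 weeks and 826, 914 and 999 CPM at 6 weeks, with overlapping groups. Its log2 fold change at 6 weeks was -0.15 ± 0.08 on the TMM scale (adjusted P = 0.187), 0.12 with library size alone (adjusted P = 0.211) and 0.24 in TPM, where it was called (limma, adjusted P = 0.0173). The last 2 values lay below the all-gene medians of 0.24 and 0.29 on those scales, and in TPM 48.9% of all genes were called higher. Its splice forms, one of adult muscle and one of most other tissues, are not separated in gene counts. Of the 31-base words in its annotated transcripts, 34.7% also occur in transcripts of other genes, 17.9% in the processed pseudogene Gm6560, so part of its count is uncertain.

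Ldha (ENSMUSG00000063229, chromosome 7) was measured at 481, 521 and 554 CPM in controls, 471, 521 and 587 CPM at 2 weeks and 465, 577 and 742 CPM at 6 weeks. The 6wk group spanned the whole range of the others, and 3 of its mice lay above the highest mouse of both. The log2 fold change at 6 weeks was 0.20 ± 0.09 (adjusted P = 0.112). It was called without replicate 2 of the 6wk group (0.27, adjusted P = 0.0234), with library size alone (0.47, adjusted P = 0.00135) and in TPM (0.59, limma, adjusted P = 0.000436). On the last 2 scales the all-gene medians were 0.24 and 0.29. At 2 weeks it was 0.01 ± 0.09 (adjusted P = 0.956). Other genes share 19.6% of its 31-base words, and the processed pseudogene Gm5452 shares 7.77%.

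Ldhb (ENSMUSG00000030246, chromosome 6, 142490249 to 142507957, minus strand) varied more between mice of a group than any other member, and its within-group SD of log2 CPM, 0.72, was at the 92.0th percentile of all genes tested. It was measured at 276, 663 and 855 CPM in controls, 185, 230 and 573 CPM at 2 weeks and 154, 347 and 612 CPM at 6 weeks. The 18 values fell at a pair of levels, 9 mice at 154 to 276 CPM and 9 mice at 512 to 855 CPM, with a gap of 0.89 on the log2 scale between them and no other gap above 0.22. Below the gap were 1 control, 5 of the 2wk mice and 3 of the 6wk mice. On the log2 scale the difference was -1.22 ± 0.38 at 2 weeks (adjusted P = 0.0675) and -0.83 ± 0.37 at 6 weeks (adjusted P = 0.115). The 2-week difference was called without control replicate 5, the low control (-1.37, adjusted P = 0.0471), without 2wk replicate 1, the high 2wk mouse (-1.57, adjusted P = 0.0249), and with DESeq2 (adjusted P = 0.0386). Each group held mice at both levels.

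Abcc9 and Kcnj8, neighbours of Ldhb on chromosome 6, were also low and high in the same mice. Abcc9, which encodes the sulfonylurea receptor subunit of muscle ATP-sensitive potassium channels, lies 79.9 kb away and had the highest group-centred correlation with Ldhb of all genes tested (Pearson r = 0.96 over 18 mice, given as a description). Kcnj8, which encodes the pore of such channels, lies 56.9 kb away and came next (r = 0.90), followed by Cdh16 on another chromosome (r = 0.79). In the 9 mice with low Ldhb, Abcc9 was 169 to 313 CPM and Kcnj8 was 7.62 to 12.2 CPM. In the other 9, they were 385 to 559 CPM and 17.9 to 26.8 CPM, without overlap. The other 4 tested genes within 300 kb had lower values, Golt1b 0.67, Cmas 0.68, Pyroxd1 0.60 and Recql 0.55. This look at neighbouring genes was chosen after the values of Ldhb were seen. These points share their libraries.

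The ratio of TPM to unscaled CPM of Ldhb differed as well. It was 1.23 to 1.46 in the low mice and 0.929 to 1.06 in the high mice. This ratio moves inversely with the transcript length that the quantification assigned to the gene, and with a factor common to all genes of a mouse. As a result the levels lay closer together in TPM, at 250 to 333 TPM against 567 to 684 TPM. A processed pseudogene, Gm5514, shares 33.0% of the 31-base words of Ldhb and was listed at 0 to 11 estimated counts. Whether genotype at this locus, read assignment or any other property of the mice goes with the levels was not tested. Ldha made up a median of 38.79% of the summed lactate dehydrogenase TPM in ctrl (34.6% to 55.1%), 60.3% at 2 weeks (42.9% to 64.4%) and 57.1% at 6 weeks (43.0% to 73.5%), with overlapping ranges.

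**Figure D3:**
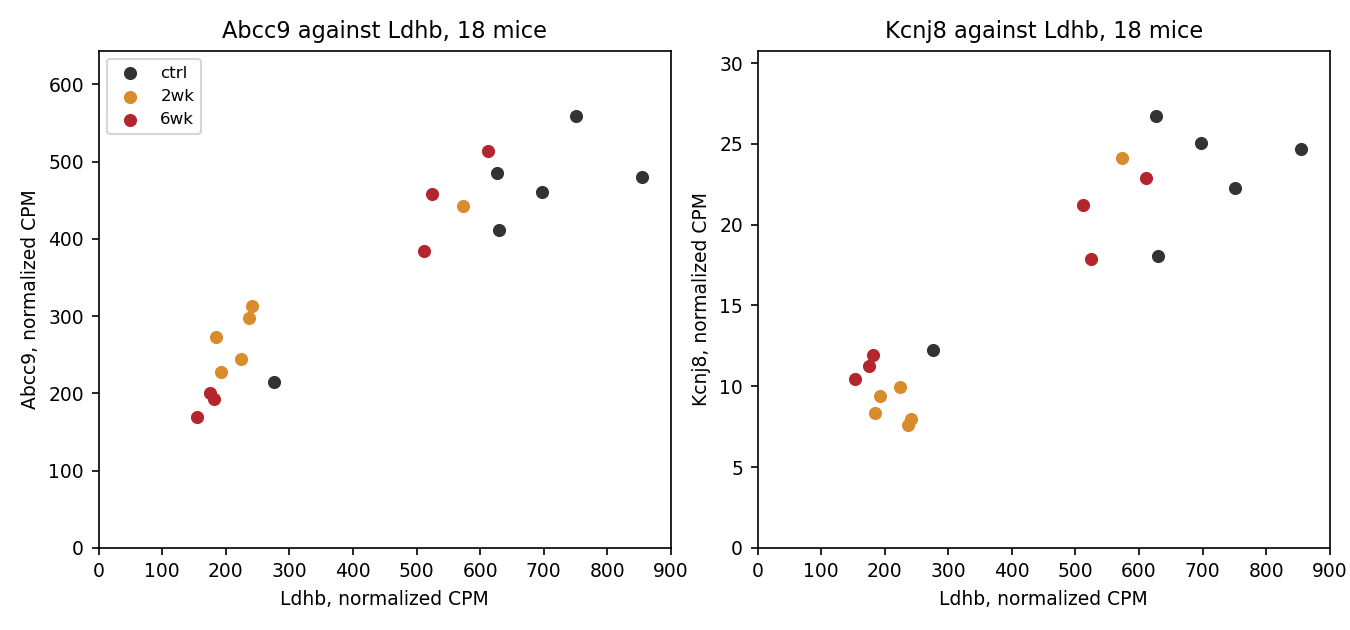
Abcc9 (left, vertical axis) and Kcnj8 (right, vertical axis) against Ldhb (horizontal axes), all in TMM-normalized CPM, with each of 18 mice as a point coloured by group. The mice form a low cluster, with Ldhb up to 276 CPM, and a high cluster, with Ldhb from 512 CPM, and control, 2wk and 6wk mice occur in both.

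Pdk4 (ENSMUSG00000019577, chromosome 6, 5483351 to 5496309, minus strand) did not pass the test in any comparison. It was measured at 68.8, 163 and 247 CPM in controls, 70.9, 107 and 246 CPM at 2 weeks and 71.7, 125 and 177 CPM at 6 weeks, with overlapping groups. The log2 fold change was -0.21 ± 0.33 at 2 weeks (adjusted P = 0.773) and -0.34 ± 0.33 at 6 weeks (adjusted P = 0.506), and in TPM both were positive (0.15 and 0.20). With an SE of 0.33 a change of moderate size could go uncalled with 6 mice per group. The smallest change that could be called was not estimated.

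The spread of Pdk4 within groups went with Y-linked transcripts. Of all genes tested, the Y-linked Kdm5d had the highest group-centred correlation with it (r = 0.88 over 18 mice), followed by Ucp3 (r = 0.87), a mitochondrial uncoupling protein gene that also rises on fasting, and the Y-linked Uty (r = 0.86). Pdk4 lay at the 88.6th percentile of within-group SD, just outside the rule for printing such lists, and this was chosen after its values were seen. The sum of Ddx3y, Eif2s3y, Kdm5d and Uty was at most 1.76 CPM in replicates 1 to 3 and at least 129 CPM in replicates 4 to 6 of every group, so each group held 3 mice of either kind, a division made from these transcripts and not from the labels. Any other property that goes with replicate numbers 1 to 3 against 4 to 6 cannot be told apart from these transcripts. In mice with these transcripts Pdk4 was 114, 177 and 247 CPM, and in those without it was 68.8, 91.3 and 150 CPM (lowest, median and highest of 9). Within each group the kinds did not overlap: 176 to 247 against 68.8 to 150 CPM in controls, 114 to 246 against 70.9 to 100 CPM at 2 weeks, and 147 to 177 against 71.7 to 104 CPM at 6 weeks. In a fit with Y-linked expression as a term beside group, the log2 difference was 0.99 ± 0.16 (adjusted P = 0.00330), at rank 24 of 15054 genes, of which 0.465% were called. With DESeq2, limma voom and library size alone, chosen after seeing the data, it was 0.99, 1.02 and 0.97, each called.

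No other member was called for this term, with Slc2a1 nearest (log2 difference -0.15 ± 0.08, adjusted P = 0.470). Of 9 tested genes that rise with Pdk4 on fasting, all 9 had a positive difference. None of them was called by edgeR or limma voom, 7 and 6 had an unadjusted P under 0.05, and DESeq2 called 2, Ucp3 among them; DESeq2 and limma voom were added here after seeing the data. With edgeR Ucp3 differed by 0.81 ± 0.24 (adjusted P = 0.166). With the Y-linked term in the fit, the post-IR difference of Pdk4 was again not called. The IR effect was -0.39 ± 0.27 at 6 weeks in mice with Y-linked transcripts and -0.23 ± 0.28 in those without, and these did not differ beyond their error (interaction adjusted P = 0.978). For no member and no comparison was the interaction called, and the smallest adjusted P was 0.663 for Pfkm from 2 to 6 weeks.

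**Figure D4:**
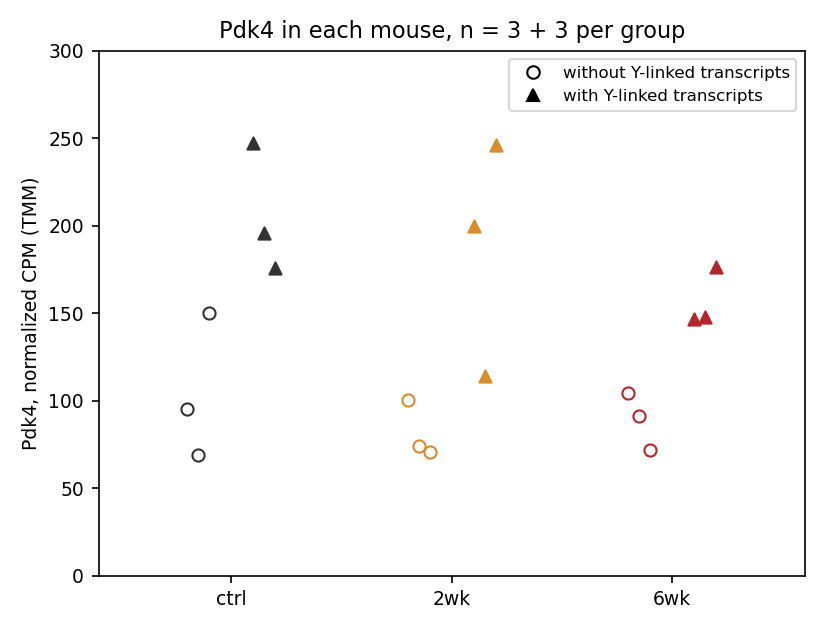
Pdk4 in TMM-normalized CPM (vertical axis, from 0) in each of 18 mice by group, with open circles for the 3 mice per group without Y-linked transcripts and filled triangles for the 3 with them. In each group all triangles lie above all circles, and the groups overlap.

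The other members that were called or that spread widely had these nearest patterns across all genes tested, as descriptions over 18 mice after removing group means. For Slc2a1 they were Ftcd (r = 0.80), Cog5 (0.79) and Mtmr12 (0.78), and for Slc2a4 they were Slc4a8 (0.81), Qars (0.80) and Kcnn2 (0.80). For Pfkm they were Rundc1 (0.91), Golga2 (0.89) and Ppp5c (0.86), and for Pfkp they were Pik3r3 (0.85), Chp1 (0.84) and Serpine2 (0.81). The points share library and scaling.

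Around the members, 80 of 83 genes listed for glucose use were tested. At 6 weeks 12 rose and 34 fell on the TMM scale (median log2 fold change -0.23 against -0.02 for all genes), but with library size alone 17 rose and 12 fell, and in TPM 23 rose and 2 fell. Of all genes, 13.5% rose and 11.5% fell with TMM, 36.5% and 2.17% with library size alone, and 48.9% and 0.784% in TPM. At 2 weeks 0 rose and 6 fell with TMM (5.02% of all genes were called), but 6 of the 9 called with library size alone and 7 of the 8 called in TPM were higher. Of all genes called at 2 weeks, 95.4% were higher with library size alone and 98.6% in TPM. The 6 that fell with TMM were Gapdh, Pfkfb1, Dlat, Pdp1, Mpc1 and Ugp2. From 2 to 6 weeks 3 rose and 10 fell with TMM (5.33% of all genes were called), but 8 of the 12 called with library size alone and 7 of the 8 called in TPM were higher. Of all genes called between these times, 91.4% and 95.6% were higher on these 2 scales. All values below are for 6wk against ctrl on the TMM scale unless stated, with edgeR adjusted P.

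Among 15 other glycolytic enzymes tested, 5 rose and 5 fell, and with library size alone 7 rose and 2 fell. Isoforms of enolase moved in different directions on the TMM scale: Eno1, the widely expressed form, rose by 0.34 ± 0.08 on the log2 scale (adjusted P = 0.00416), Eno2, the neuronal form, rose by 0.79 ± 0.19 (adjusted P = 0.00433), and Eno3, the muscle form, went from a median of 1027 to 723 CPM (log2 fold change -0.52 ± 0.10, adjusted P = 0.000817). Eno3 was also called with library size alone (-0.26, adjusted P = 0.0250) but not in TPM (-0.13). Of the phosphoglycerate mutases, Pgam1, the widely expressed form, rose by 0.42 ± 0.11 (adjusted P = 0.00656), and Pgam2, the muscle form, had a log2 fold change of -0.44 ± 0.09 (adjusted P = 0.00193), which was not called with library size alone (-0.17, adjusted P = 0.0920). Gapdh was lower at 2 weeks (-0.47 ± 0.12, adjusted P = 0.0314) and at 6 weeks (-0.51 ± 0.12, adjusted P = 0.00433), but with library size alone neither difference was called (adjusted P = 0.0848 and 0.104), and in TPM the 6-week value turned to 0.09. These enolase and mutase pairs were singled out after their values were seen. Pfkl was not called (0.08, adjusted P = 0.535), but it was called higher with library size alone (0.35, adjusted P = 0.00250) and in TPM (0.33, limma, adjusted P = 0.0326).

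The enzymes that set fructose 2,6-bisphosphate, the activator of phosphofructokinase, moved in both directions. Pfkfb1 was measured at 6.97, 8.63 and 11.7 CPM in controls, 3.76, 4.62 and 5.69 CPM at 2 weeks and 2.21, 3.53 and 6.15 CPM at 6 weeks. It fell by 0.92 ± 0.20 at 2 weeks (adjusted P = 0.0116) and by 1.29 ± 0.20 at 6 weeks (adjusted P = 0.000161), without overlap with controls, and was called lower also with library size alone (-1.03) and in TPM (-0.68). Pfkfb4 rose by 0.67 ± 0.16 (adjusted P = 0.00424), also without overlap on the TMM scale, and was called higher on each of these scales.

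Of 11 genes for the pyruvate dehydrogenase complex and its regulators, which carry pyruvate into mitochondrial oxidation, 8 fell and 0 rose on the TMM scale, 5 fell with library size alone, and in TPM 1 fell and 1 rose. Pdhb, the E1 beta subunit, was measured at 182, 297 and 325 CPM in controls, 202, 284 and 373 CPM at 2 weeks and 140, 152 and 198 CPM at 6 weeks. It fell by 0.78 ± 0.15 against controls (adjusted P = 0.000761) and by 0.84 ± 0.15 against 2wk (adjusted P = 0.00472), where the groups did not overlap, and it was called against controls on all 3 scales. Dlat, the E2 subunit (-0.47 ± 0.08), Dld, the E3 subunit (-0.40 ± 0.08), Pdhx (-0.56 ± 0.12), and the phosphatase genes Pdp2 (-0.69 ± 0.14) and Pdpr (-0.53 ± 0.08) were called too (adjusted P from 0.000163 to 0.00273), but Dld was not called with library size alone and none of these 5 in TPM. The kinases Pdk1, Pdk2 and Pdk3 were not called with TMM, with log2 fold changes of -0.04, -0.19 and 0.27, nor with library size alone. In TPM Pdk3 was called higher (0.43, limma, adjusted P = 0.0223).

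Of 7 genes that carry or handle pyruvate and lactate, 1 rose and 4 fell with TMM, 2 rose and 2 fell with library size alone, and 2 rose and 0 fell in TPM. Slc16a3, the lactate exporter MCT4 of glycolytic cells, was measured at 2.50, 3.68 and 5.01 CPM in controls, 3.66, 5.10 and 6.08 CPM at 2 weeks and 3.48, 10.1 and 14.1 CPM at 6 weeks. It rose by 1.36 ± 0.25 against controls (adjusted P = 0.000532) and by 0.95 ± 0.23 against 2wk (adjusted P = 0.0271), and its rise against controls was called on all 3 scales. Mpc2 of the mitochondrial pyruvate carrier (-0.51 ± 0.09, adjusted P = 0.000567) and the D-lactate dehydrogenase gene Ldhd (-0.52 ± 0.08, adjusted P = 0.000170) were called lower with TMM and with library size alone but not in TPM.

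Of 13 glycogen enzymes, 1 rose and 8 fell with TMM, but with library size alone 1 rose and 1 fell and in TPM 1 rose and 0 fell. Pygm, the muscle phosphorylase (-0.37 ± 0.07, adjusted P = 0.000745) and Phkb of phosphorylase kinase (-0.35 ± 0.06, adjusted P = 0.000658) were called only on the TMM scale, and in TPM their values were 0.00 and 0.21. The other phosphorylase genes, Pygb (-0.01, adjusted P = 0.986) and Pygl (-0.39, adjusted P = 0.524), were not called on any of the 3 scales. Phkg1, another subunit gene of phosphorylase kinase, was called with TMM (-0.82 ± 0.18, adjusted P = 0.00242) and with library size alone. Pgm2 rose by 0.48 ± 0.11 (adjusted P = 0.00259), and on all 3 scales it was called higher.

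Of 16 genes of insulin and glucose signalling, 2 rose and 4 fell, but in TPM 6 rose and 0 fell. Irs1, the insulin receptor substrate, was measured at 95.2, 101 and 112 CPM in controls, 75.1, 85.0 and 103 CPM at 2 weeks and 53.1, 62.2 and 87.2 CPM at 6 weeks. Its log2 fold change at 6 weeks was -0.65 ± 0.10 (adjusted P = 0.000120), without overlap, and it was called with library size alone (-0.39, adjusted P = 0.00693) but not in TPM (-0.24, adjusted P = 0.0741). Tbc1d1, a Rab GTPase activator that holds back GLUT4 vesicles, rose by 0.70 ± 0.11 (adjusted P = 0.000170) and was called on all 3 scales. The insulin receptor gene Insr (-0.29 ± 0.06, adjusted P = 0.00159) and Prkaa2, the catalytic AMP-activated kinase subunit of muscle (-0.49 ± 0.10, adjusted P = 0.00160), were called with TMM alone, and Insr turned positive in TPM. Hif1a, the oxygen-regulated factor subunit, was not called with TMM (0.61 ± 0.23, adjusted P = 0.0583) but was with library size alone (0.88, adjusted P = 0.00533) and in TPM. Of 4 other glucose transporter genes, only Slc2a12 was called (-0.43 ± 0.12, adjusted P = 0.0160, and not with library size alone or in TPM). Of 9 genes that rise with Pdk4 on fasting, 1 rose and 3 fell with TMM, but 2 rose and 0 fell both with library size alone and in TPM. One that fell with TMM was Cpt1b, the muscle fatty acid carrier enzyme (-0.38 ± 0.08, adjusted P = 0.00146), which was called with TMM alone and turned to 0.01 in TPM.

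**Figure D5:**
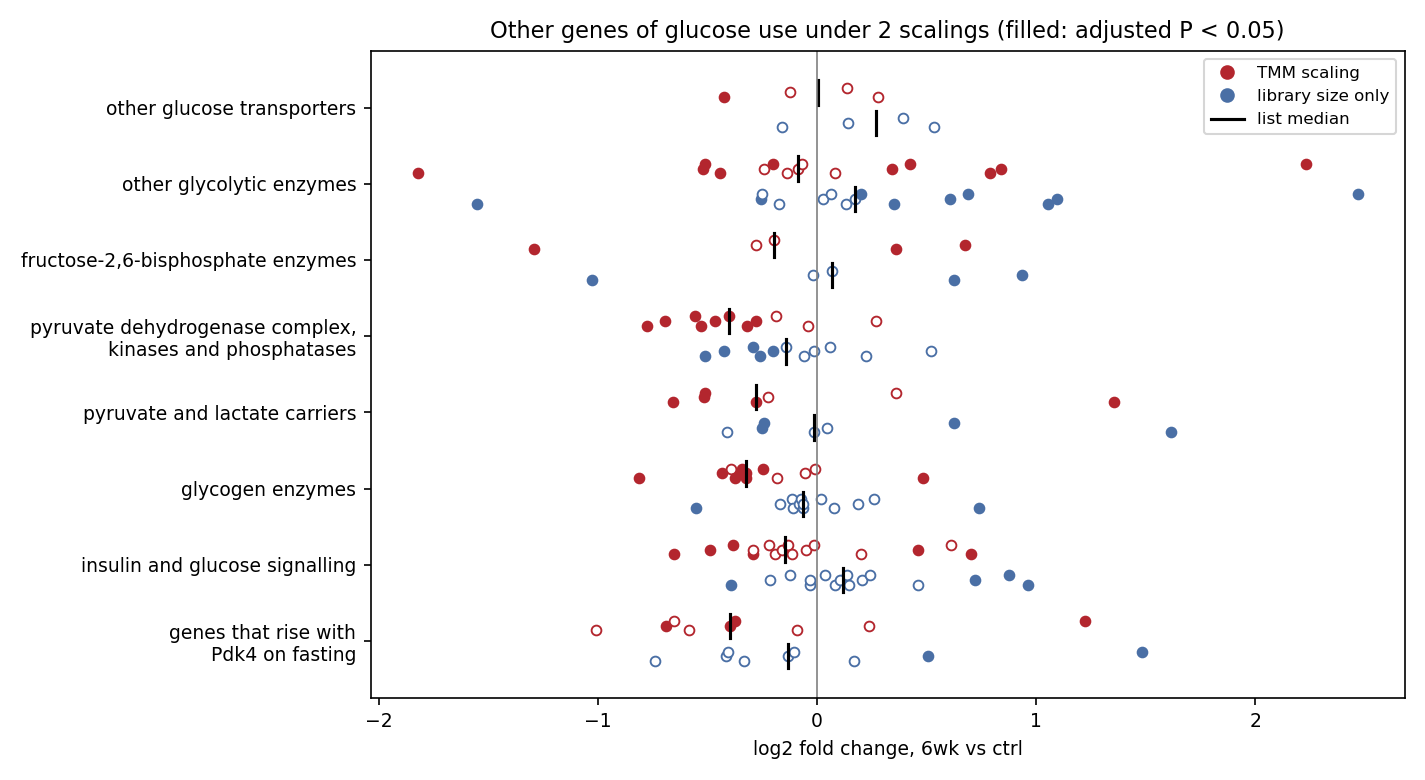
Log2 fold changes for 6wk against ctrl (horizontal axis) of 80 tested genes in 8 lists (rows), on the TMM scale (red) and with library size alone (blue), with a black line at each list's median and filled points where the adjusted P was under 0.05. The pyruvate dehydrogenase list has 8 filled red points and 5 filled blue points to the left of 0, while the glycogen list goes from 8 to 1.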

How the data were processed

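RNA from the septum of 18 mice was sequenced (TRIzol extraction, KAPA RNA HyperPrep library, NovaSeq). The authors quantified transcripts with Salmon 1.0 on GRCm38, summed them per gene, and deposited estimated counts and TPM for 30072 genes; the submitters' processing notes also name CASAVA 1.8. Estimated counts were rounded to whole numbers. Genes with at least 0.23 CPM in 6 or more mice were kept. One edgeR 4.0.16 quasi-likelihood model of the 3 groups with TMM factors (R 4.3.3) gave 3 comparisons with Benjamini-Hochberg adjustment; DESeq2 1.42.0, limma 3.58.1 (voom, or log2(TPM + 1)) and other settings were alternatives. The edgeR step was tested on simulated data. CPM levels are TMM-normalized, and fold changes in TPM are on the log2(TPM + 1) scale, which understates changes of low genes. Intervals from counting were not used; 6 mice per group limit the precision. 

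The members and gene lists were chosen with earlier results of these data known. Named were all members and the 24 listed pathway genes with the smallest adjusted P. For members called or in the top 10% of within-group SD, the 3 genes of highest correlation were named too. Gapdh, Eno2, Pgam1, Pdk1 to Pdk3, Pdp1, Mpc1, Ugp2, Hif1a, Slc2a12, Ucp3, Cpt1a, Pfkl, Pygb and Pygl were named after their values were seen. Some genes that these rules name are not reported here. Symbols were matched for 29301 identifiers. Same-numbered mice did not deviate together (r from -0.101 to 0.0903 over 18 pairs), so replicate numbers were not used as a block.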

Additional observations from a re-analysis of the deposited data

Results flagged for a closer look

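In 45 groups of 6 mice tested, 7 had a mouse far from the others by Dixon's criterion. Chance gives about 1 in 20 for independent tests of normal values. Here the TPM shares reuse the members' own values, and Ldhb fell at a pair of levels, so that rate is only a rough guide. In the 2wk group, replicate 1 stood apart for Slc2a1 (27.9 CPM), for Ldhb (573 CPM), for the Slc2a1 share of transporter TPM (5.79%) and for the Ldha share of lactate dehydrogenase TPM (42.9%). Replicate 4 of the 6wk group stood apart for Hk1 (189 CPM) and for the Hk1 share of hexokinase TPM (29.2%), and control replicate 5 for the Ldha share (55.1%).

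For 11 of the genes named by the rule, the difference from controls was not the same at 2 and 6 weeks. Their 6wk against 2wk contrast was itself called by edgeR. That rule took every member and the 24 pathway genes with the smallest adjusted P in any comparison, this contrast included. The count therefore depends in part on the selection and is not a rate to set against the 5.33% of all genes called. The log2 fold change between the times was 0.65 for Slc2a1 (adjusted P = 0.00221), 0.95 for Slc16a3 (adjusted P = 0.0271) and 0.46 for Tbc1d1 (adjusted P = 0.0237). It was -0.84 for Pdhb, -0.42 for Eno3, -0.41 for Irs1, -0.40 for Prkaa2, -0.32 for Ldhd, -0.31 for Pdpr, -0.30 for Pygm and -0.22 for Insr (adjusted P from 0.00472 to 0.0410). These values are on the TMM scale. With library size alone Irs1, Prkaa2, Ldhd, Pdpr, Pygm and Insr were not called (edgeR, adjusted P from 0.0538 to 0.337). In TPM these and Eno3 were not called (limma, adjusted P = 0.0635 for Eno3). Slc2a1, Slc16a3, Tbc1d1 and Pdhb were called on all 3 scales. Another 3 pathway genes outside the rule, named after their values were seen, were also called with TMM, Ppargc1a (-0.62, adjusted P = 0.0156), Ppargc1b (-0.48, adjusted P = 0.0228) and Plin2 (0.41, adjusted P = 0.0225). All 3 were called with library size alone, but in TPM Ppargc1a and Ppargc1b were not (limma, adjusted P = 0.424 and 0.139).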

How the results depend on the processing

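Of 363 values of single members and of the Pdk4 difference under other settings, 310 kept their direction and side of the threshold. A call was gained in 20, of which 2 also changed sign, and lost in 6, of which 4 also changed sign. In all 33 changed sign. Members called at 2 weeks were 0 in the report, 1 with DESeq2, with counts rebuilt from TPM (Hk2) and with only the 2 groups compared, and 2 with log2(TPM + 1) and with log2(TPM + 0.1). Members called between 6 and 2 weeks were 1, against 3 with DESeq2 and with voom and 2 with only the 2 groups compared. With an added limit of 1 on the absolute log2 fold change, 0 members were called at 6 weeks and 0 from 2 to 6 weeks. Pathway genes called at 2 weeks were 6, against 12 with DESeq2, 3 with rebuilt counts and 0 with the fold limit; at 6 weeks 46, against 29 with library size, 25 with either TPM scale and 5 with the fold limit; from 2 to 6 weeks 13, against 20 with voom, 8 with log2(TPM + 1), 6 with log2(TPM + 0.1) and 0 with the fold limit. All genes called at 2 weeks were 755, against 1216 (DESeq2), 1789 (library size), 484 (rebuilt), 2813 and 3026 (TPM) and 136 (fold limit); at 6 weeks 3760, against 5820, 7472, 7463 and 896 (library size, both TPM scales, fold limit); and from 2 to 6 weeks 802, against 172 with the fold limit. As shares of CPM, Ldha at 2 weeks was 70.3%, Pfkp at 2 weeks 8.53%, and Slc2a1 6.39%, 5.43% and 11.2% in ctrl, 2wk and 6wk. With the replicate block, 0, 4 and 1 members were called at 2 weeks, at 6 weeks and between them, with 8 pathway genes and 542 genes in all between them.

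Signs changed as follows, with library size before TPM and both pseudocounts alike unless given. At 2 weeks Slc2a1 was 0.047 and 0.052 in TPM (pseudocounts of 1 and 0.1), Slc2a4 0.046 and 0.059, Pfkm 0.071 and 0.16, Pkm 0.098 and 0.17, and Pdk4 0.15 and 0.16 in TPM. At 6 weeks Slc2a4 was 0.033 and Pfkm 0.031 in TPM, Hk2 was 0.093 and 0.23, Pkm 0.12 and 0.24, and Pdk4 0.20 in TPM. From 2 to 6 weeks Hk1 was 0.053 and 0.063, Pkm 0.023 and 0.069, and Pdk4 0.041 and 0.043 in TPM. The cause of these changes beyond the scaling was not tested.

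Leaving out 1 mouse at a time gave 0 to 1 members, 2 to 8 pathway genes and 451 to 879 genes at 2 weeks; 4 to 5, 38 to 50 and 3083 to 3932 at 6 weeks; and 1 to 2, 2 to 20 and 330 to 994 from 2 to 6 weeks. Signs turned within -0.022 to 0.042 for Ldha at 2 weeks, and from 2 to 6 weeks within -0.11 to 0.014 for Hk1, -8.04e-05 to 0.060 for Hk2 and -0.26 to 0.14 for Pdk4, positive without replicate 4 or 6 of the 2wk group.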
